A study of Mus musculus with 8 samples.

Results

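Transcripts of 10 genes for matrix glycoproteins and stromal proteins were followed in cultured mouse muscle cells: Tnc, Spp1, Sparc, Smoc2, Fn1, Fbn1, Postn, Thbs1, Thbs2 and Islr. They are 10 of the 35275 genes in the deposited table. The genes were taken by symbol, and earlier values of the same libraries had shown Tnc higher and Islr and Smoc2 lower in cells given extracellular vesicles. The genes were thus chosen by their values with and without these vesicles, which are given below as a description, with no test. Tested for these genes were the change between the sampling times within each treatment and the difference between the vesicle effects at those times. These contrasts reuse the libraries that chose the genes.

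Myotubes, the multinucleated muscle cells that form when myogenic progenitor cells (MPCs) fuse in culture, were differentiated from primary MPCs of C57BL6/J mice in medium with horse serum. One set received extracellular vesicles (EVs) released by proliferating primary MPCs and isolated with a polymer-based method. The control set received EVs prepared in place of these from growth media, so every library comes from cells given some EV preparation, and untreated myotubes are not among the samples used here. Cells were taken for RNA-seq at 12 h or 24 h, which gives 4 groups of 2 libraries, named control and MPC EV below with their time. A higher value with MPC EVs cannot be told apart from a lower value with the control preparation. Whether replicates are separate cultures is not stated in the labels; if they are not, p-values reflect technical spread alone.

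The extracellular matrix of muscle is a mesh of collagens, fibronectin and fibrillin microfibrils that surrounds each fibre, and cells read it through integrins and other receptors. A second class of secreted proteins, called matricellular, does not build the mesh but changes how cells attach to it and how growth factors reach them. Tenascin-C, osteopontin, SPARC, periostin and the thrombospondins belong to this class, and several of them are known to be made during muscle repair. In muscle tissue much of the matrix is made by resident fibroblasts, although muscle cells in culture also make matrix components.

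Depth was 16324184 to 20187736 fragments per library. Values are FPKM, the fragments of a gene divided by its length and by the fragments in the library. Libraries of the same group correlated at 0.992 to 0.996 over the tested genes in 3 groups, but at 0.947 in control at 12 h. Control 12 h replicate 2 stood apart: 966 long transcripts of low GC content had a median of -1.03 there in log2 units, set against the average of the remaining libraries, compared with -0.10 to 0.25 in the other 7 libraries. Postn is such a long, low-GC transcript (36.3% GC), and Spp1 is low in GC (43.3%) but short, so results of both genes are also given without that library. Myotube markers averaged 1 FPKM or more in 15 of 16 cases, while 7 of 8 endothelial markers averaged under 0.1 FPKM.

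Tnc and Spp1 were the members with higher levels in MPC EV libraries at both times. Tnc encodes tenascin-C, a large glycoprotein that loosens the attachment of cells to fibronectin and is made at sites of tissue repair. The gene (ENSMUSG00000028364) lies on chromosome 4, from 63959785 to 64047015 on the minus strand of GRCm38/mm10. Its level was 35.1 and 38.7 FPKM in the control libraries at 12 h and 54.4 and 75.8 FPKM in the MPC EV libraries. At 24 h it was 28.8 and 27.2 FPKM in control and 66.3 and 62.8 FPKM with MPC EVs. All 4 MPC EV libraries were above all 4 control libraries. MPC EV replicate 2 at 12 h was the highest of all and lay farther from its partner than any other pair of Tnc values. The MPC EV mean was 1.76 times the control mean at 12 h and 2.31 times at 24 h. On the scale of log2(FPKM + 0.5), used for all differences below, the difference was 0.79 ± 0.15 (SE) at 12 h and 1.19 ± 0.15 at 24 h. These values rest on 3907 to 9877 fragments per library, so counting error was small beside the spread between libraries.

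Spp1 encodes osteopontin, a phosphorylated protein that binds integrins and CD44 and is known as a cytokine-like signal in injured muscle. The gene (ENSMUSG00000029304) lies on chromosome 5, from 104435118 to 104441050 on the plus strand. It was the most abundant of the 10 transcripts by mean level in every group. The control libraries at 12 h held 865 and 455 FPKM, and the MPC EV libraries 1455 and 1548 FPKM. At 24 h the levels were 461 and 427 FPKM in control and 1172 and 1253 FPKM with MPC EVs. Groups did not overlap at either time, but the pair of control libraries at 12 h differed widely, with replicate 2 near the control level of 24 h. The difference between treatments was 1.26 ± 0.27 at 12 h and 1.45 ± 0.27 at 24 h on the log2 scale. Without control 12 h replicate 2 the difference at 12 h was 0.80, and without replicate 1 it was 1.72.

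Islr encodes a secreted protein with leucine-rich repeats and an immunoglobulin domain, also called meflin, which is used as a marker of mesenchymal stromal cells. The gene (ENSMUSG00000037206) lies on chromosome 9, from 58156268 to 58204306 on the minus strand. Islr was at 3.65 and 4.84 FPKM in control at 12 h and at 1.04 and 0.882 FPKM with MPC EVs. At 24 h it stood at 13.0 and 14.0 FPKM in control and at 2.23 and 2.42 FPKM with MPC EVs. All MPC EV libraries were below all control libraries, also across the times. Control exceeded MPC EV 4.42-fold at 12 h and 5.80-fold at 24 h, with log2 differences of -1.69 ± 0.15 and -2.31 ± 0.15. The MPC EV libraries held 36 to 97 Islr fragments each and the control libraries 152 to 629. Its exons share 181 bases with Islr2, and the libraries do not keep strand, but Islr2 had a mean of only 0.0777 FPKM.

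The promoter windows of these 3 genes are shown because they are the members with the clearest separation of treatments for which a window was at hand. Each runs from 250 bases before to 50 after a RefSeq start site, in build GRCm38.p6, read 5′ to 3′ on the gene's strand. Capitals mark matches on either strand to 5 motifs. The TATA box was searched as TATAAA. The letters for the AP-1 factors were TGANTCA. For the TEAD factors they were CATTCC, and for SMAD proteins CAGACA. The NF-kB motif is given by name only. The windows are chr4:64046966-64047265 for Tnc (minus strand), chr5:104434861-104435160 for Spp1 (plus strand) and chr9:58158505-58158804 for Islr (minus strand).
Tnc: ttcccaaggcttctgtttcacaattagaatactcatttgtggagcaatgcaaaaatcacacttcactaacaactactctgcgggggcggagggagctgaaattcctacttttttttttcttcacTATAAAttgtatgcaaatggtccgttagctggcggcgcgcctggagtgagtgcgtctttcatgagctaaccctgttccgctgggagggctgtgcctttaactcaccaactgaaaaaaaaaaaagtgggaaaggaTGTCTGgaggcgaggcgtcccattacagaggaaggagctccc
Spp1: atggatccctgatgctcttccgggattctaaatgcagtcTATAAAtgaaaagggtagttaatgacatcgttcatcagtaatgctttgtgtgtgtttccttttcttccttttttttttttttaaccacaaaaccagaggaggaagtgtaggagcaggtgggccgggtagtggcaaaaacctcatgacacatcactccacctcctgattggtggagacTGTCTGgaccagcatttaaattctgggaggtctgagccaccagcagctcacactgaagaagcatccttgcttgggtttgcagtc
Islr: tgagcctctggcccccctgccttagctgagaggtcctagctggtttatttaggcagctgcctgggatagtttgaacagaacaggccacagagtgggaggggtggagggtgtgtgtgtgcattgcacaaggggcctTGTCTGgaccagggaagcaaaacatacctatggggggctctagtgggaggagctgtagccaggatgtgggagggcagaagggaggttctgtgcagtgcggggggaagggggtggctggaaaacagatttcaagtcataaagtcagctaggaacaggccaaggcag

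The Tnc window holds TATAAA with its first base 126 bases before the start, and the Spp1 window holds it 211 bases before. All 3 windows hold TGTCTG, the SMAD letters on the opposite strand, which begins 9 bases after the start in Tnc, 34 before it in Spp1 and 115 before it in Islr. None of the 3 holds the AP-1, TEAD or NF-kB letters. In 32851 promoter windows of the same length, TATAAA was present in 13.6%, CAGACA in 21%, CATTCC in 14.7%, TGANTCA in 7.81% and the NF-kB letters in 1.47%. E boxes (CANNTG), which bind myogenic factors among others, occur in 72.3% of all windows and were not put in capitals. The Tnc window has 3 of them, and the Spp1 and Islr windows 1 each. A match describes the sequence only, and binding was not measured. RefSeq gives a second start site for Tnc, Spp1 and Postn. For Tnc and Spp1 the windows printed are those nearest the start of the annotated gene. The only Islr window has its start site at 58158554, far inside the annotated gene, which begins at 58204306 on the minus strand. In the other Tnc window TATAAA begins 205 bases before the start, and SMAD letters begin 71 before and 40 after it; the other Spp1 window holds 2 E boxes and none of the TATA, SMAD, AP-1, TEAD or NF-kB letters. RefSeq windows matched 7 of the 10 members, and Fn1, Thbs1 and Smoc2 had no entry. TGTCTG was not confined to the 3 genes printed. It begins 36 bases before and 15 after the start in Sparc, and 67 and 44 before it in Thbs2. The Fbn1 and Postn windows hold no SMAD letters. TATA letters on either strand begin 26 bases before the start in Postn and 126 before it in Thbs2. The Postn match lies in the window with its start site at 54361107, and the other Postn window holds no TATA letters.

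Smoc2 had the largest ratio between treatments of the 10 genes at 12 h, and one close to that of Islr at 24 h. It encodes a calcium-binding protein of the SPARC family that is secreted into the matrix. The gene (ENSMUSG00000023886) lies on chromosome 17, from 14279506 to 14404790 on the plus strand. Control libraries at 12 h had 3.20 and 4.25 FPKM, against 0.306 and 0.443 FPKM with MPC EVs. At 24 h the values were 1.92 and 2.61 FPKM in control and 0.476 and 0.314 FPKM with MPC EVs. Every control library exceeded every MPC EV library, with mean ratios of 9.96 at 12 h and 5.73 at 24 h. The log2 differences were -2.27 ± 0.21 and -1.62 ± 0.21. With a pseudocount of 0.1 in place of 0.5 they were -3.01 and -2.26, because the added constant weighs on values this low.

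Few fragments lie behind the low Smoc2 values. MPC EV libraries held 15 and 23 fragments at 12 h, with exact 95% Poisson intervals of 8.40 to 24.7 and 14.6 to 34.5 fragments. Control libraries at 12 h held 170 and 239 fragments (145.4 to 197.6 and 209.7 to 271.3). At 24 h there were 22 and 16 fragments with MPC EVs (13.8 to 33.3 and 9.14 to 26.0) and 107 and 149 in control (87.7 to 129.3 and 126.0 to 174.9). The intervals of the treatments do not overlap at either time, and they cover counting error only. Smoc2 passed the filter for testing (an average of 1 FPKM or more across all libraries) only through its control libraries.

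Sparc, the founding member of the family that includes SMOC2, encodes osteonectin, which binds collagen and calcium. The gene (ENSMUSG00000018593) lies on chromosome 11, from 55394500 to 55423183 on the minus strand. Its transcript was abundant in every library: 451 and 520 FPKM in control and 472 and 491 FPKM with MPC EVs at 12 h, then 437 and 437 FPKM in control and 537 and 505 FPKM with MPC EVs at 24 h. Treatments overlapped at 12 h, with a log2 difference of -0.01 ± 0.08 that became 0.13 with median-ratio scaling. They did not overlap at 24 h, where the MPC EV mean was 1.19 times the control mean (log2 difference 0.25 ± 0.08). The family members therefore stood in a very different ratio in the 2 treatments. Sparc exceeded Smoc2 by 141- and 122-fold in control at 12 h and by 1544- and 1109-fold with MPC EVs. At 24 h the ratios were 228 and 168 in control and 1129 and 1607 with MPC EVs.

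**Figure D1:**
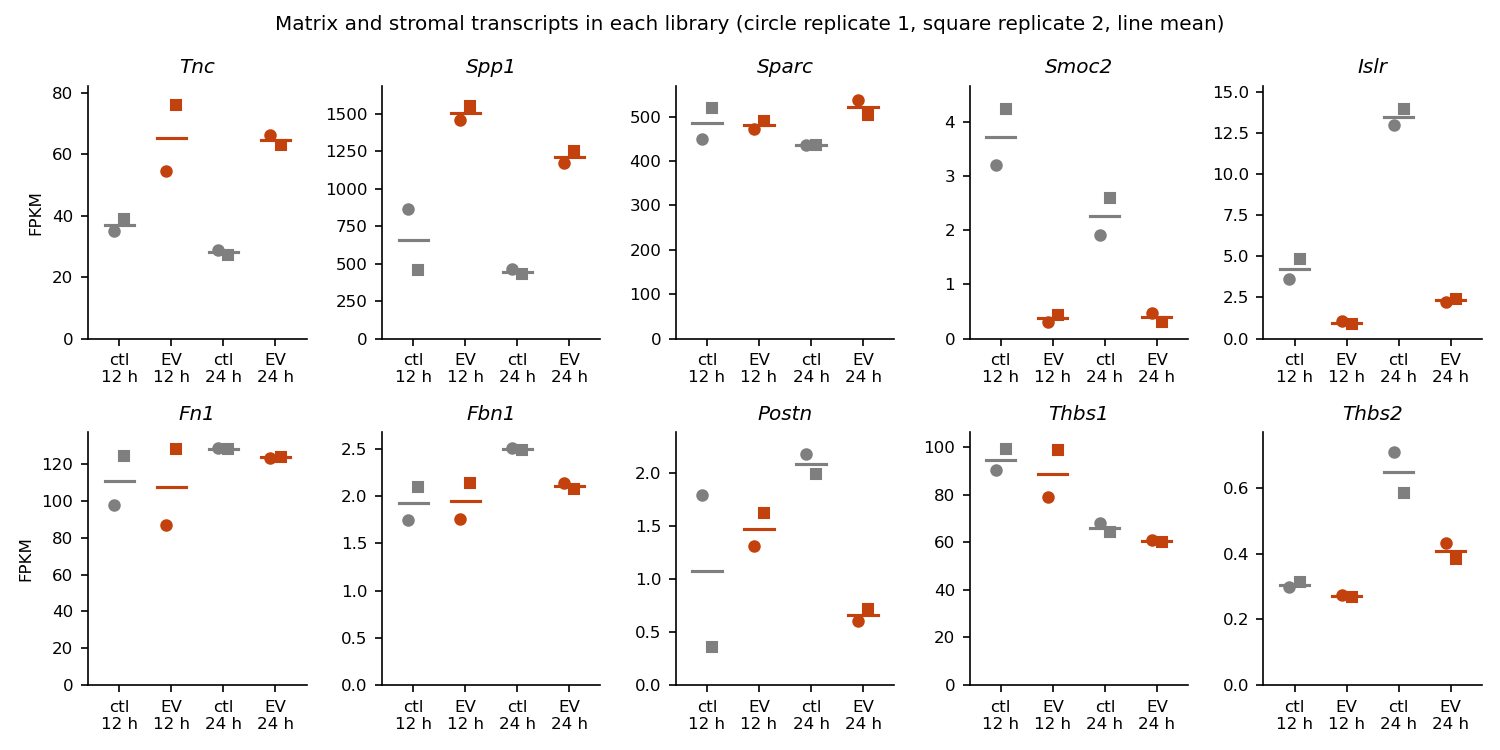
FPKM (vertical axes, each from 0, different scales) of the 10 genes in each library, with control libraries (ctl) in grey, MPC EV libraries in orange, circles for replicate 1, squares for replicate 2 and lines for the group mean. In the Tnc, Spp1, Islr and Smoc2 panels the treatments are apart at both times. Thbs2 also has no overlap at either time, at low values and with MPC EV to control ratios of 0.882 and 0.632. At 24 h none of the 10 genes overlaps, so lack of overlap sets no gene apart there. How common it is over all tested genes was not computed. In the Spp1 and Postn panels the control libraries at 12 h lie far from each other.

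The structural glycoproteins Fn1 and Fbn1 showed little difference between treatments. Fn1 (ENSMUSG00000026193; chromosome 1, 71585520 to 71653200, minus strand) encodes fibronectin, the adhesive glycoprotein to which integrins bind. Fn1 was at 97.7 and 124 FPKM in control and 87.2 and 128 FPKM with MPC EVs at 12 h, and at 129 and 128 against 124 and 124 FPKM at 24 h. The log2 differences of -0.06 ± 0.19 and -0.05 ± 0.19 were smaller than their errors. The groups overlapped at 12 h, and at 24 h they did not, at a mean ratio of 0.965. At 24 h the treatments overlapped for none of the 10 members, so lack of overlap alone sets no gene apart there. How common it is over all tested genes was not computed. Fbn1 (ENSMUSG00000027204; chromosome 2, 125300594 to 125507993, minus strand) encodes fibrillin-1, the backbone of microfibrils that hold latent TGF-beta complexes. Its libraries had 1.75 and 2.10 FPKM in control and 1.76 and 2.14 FPKM with MPC EVs at 12 h, with no separation (log2 difference 0.01 ± 0.13). At 24 h Fbn1 was at 2.51 and 2.49 FPKM in control and 2.14 and 2.07 FPKM with MPC EVs, a difference of -0.20 ± 0.13 between groups that did not overlap.

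The difference of Postn between treatments was above 0 at 12 h and below 0 at 24 h. Postn encodes periostin, a matricellular protein that binds integrins and collagen and is known from fibrosis and wound repair. The gene (ENSMUSG00000027750) lies on chromosome 3, from 54361109 to 54391037 on the plus strand. At 12 h Postn had 1.79 and 0.358 FPKM in control and 1.31 and 1.63 FPKM with MPC EVs. The value of 0.358 came from the control library that stood apart and rested on 31 fragments, against 146 in its partner. At 24 h the levels were 2.18 and 1.99 FPKM in control and 0.605 and 0.715 FPKM with MPC EVs, without overlap. Control was 3.16-fold higher at 24 h, with a log2 difference of -1.16 ± 0.42. At 12 h the groups overlapped and the difference of 0.49 ± 0.42 turned with the control library used: it was -0.22 without control 12 h replicate 2 and 1.19 without replicate 1. After correction for GC content and length it was 0.05 at 12 h and -1.03 at 24 h.

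The thrombospondins are trimeric or pentameric secreted proteins; those encoded by Thbs1 and Thbs2 form trimers and bind the receptors CD36 and CD47. Thbs1 (ENSMUSG00000040152; chromosome 2, 118111876 to 118127133, plus strand) was at 90.2 and 99.1 FPKM in control and 78.9 and 98.6 FPKM with MPC EVs at 12 h. At 24 h its levels were 68.0 and 64.2 FPKM in control and 60.9 and 59.9 FPKM with MPC EVs. The log2 differences between treatments were -0.10 ± 0.11 and -0.13 ± 0.11, and the first became 0.04 with median-ratio scaling. Thbs2 (ENSMUSG00000023885; chromosome 17, 14665500 to 14694235, minus strand) was at 0.297 and 0.315 FPKM in control and 0.273 and 0.267 FPKM with MPC EVs at 12 h. At 24 h it had 0.711 and 0.586 FPKM in control and 0.434 and 0.385 FPKM with MPC EVs. With 28 to 83 fragments per library and a mean of 0.409 FPKM, Thbs2 was the only member that missed the filter, so 9 of the 10 were tested. Its log2 differences were -0.07 at 12 h and -0.33 at 24 h. Thbs2 and Smoc2 are neighbours on chromosome 17, 260.7 kb apart with 2 genes and no protein-coding gene between them; the Smoc2 means differed 9.96-fold at 12 h and those of Thbs2 1.13-fold.

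**Figure D2:**
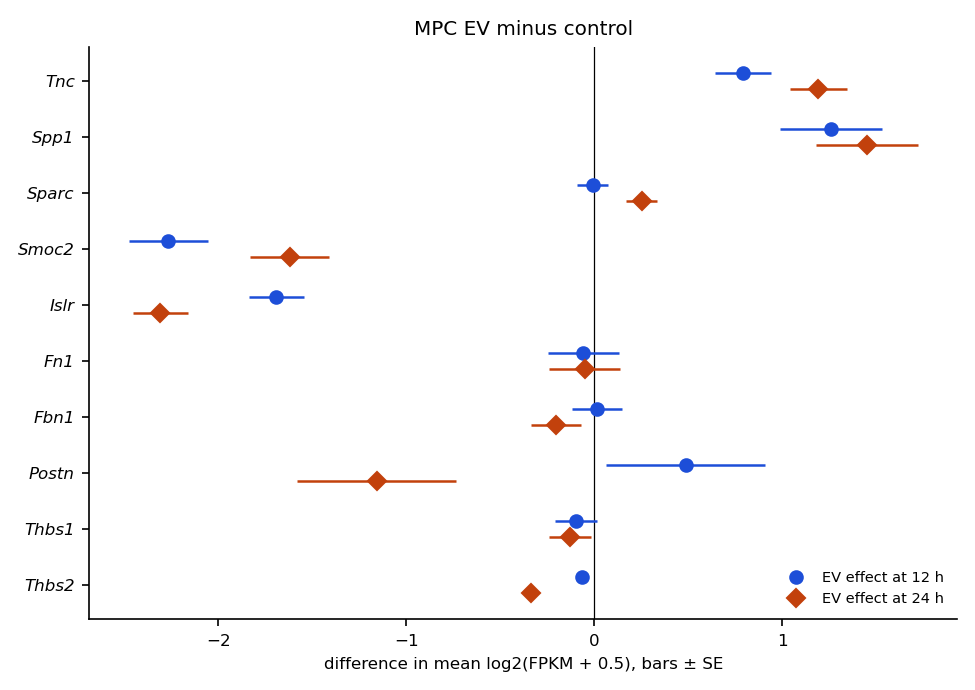
Difference between MPC EV and control for each gene at 12 h (blue circles) and 24 h (red diamonds) as the difference in mean log2(FPKM + 0.5), with bars of 1 SE from the fit; Thbs2 was not in the fit and has no bar. Tnc and Spp1 lie to the right of 0 and Islr and Smoc2 to the left at both times, while Postn lies on opposite sides at 12 h and 24 h.

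In order of mean level per length, Spp1 and Sparc led in all 4 groups and Fn1 was the next. In control the Spp1 and Sparc libraries overlapped at both times; with MPC EVs Spp1 stood clearly above Sparc. Fn1 and Thbs1 overlapped at 12 h in either treatment. Tnc came after Thbs1 in control (82.5th percentile of tested genes at 12 h and 77.4th at 24 h) and with MPC EVs at 12 h, and ahead of it with MPC EVs at 24 h (90.4th percentile). Among the members Smoc2 was 7th in control and 9th with MPC EVs at 12 h, and 8th and 10th at 24 h. Islr was 6th and 8th at 12 h and 6th in both treatments at 24 h; by percentile among tested genes it was at the 57.9th in control at 24 h and at the 2.19th with MPC EVs at 12 h. The libraries of neighbours also overlapped for Fbn1, Smoc2 and Postn in control at 24 h, for Islr and Smoc2 and for Fbn1 and Postn in control at 12 h, and for Thbs2 and Smoc2 with MPC EVs at 24 h. Over all tested genes, 4.36% were called higher and 14.3% lower with MPC EVs at 12 h, and 2.61% higher and 0.956% lower at 24 h. The median tested gene stood at -0.12 at 12 h (0.01 with median-ratio scaling) and at -0.03 at 24 h.

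Between 12 h and 24 h, Islr rose and Thbs1 fell in control and in MPC EV myotubes, and these were the 2 members of 9 that passed in each treatment. All adjusted p-values here are from limma with Benjamini-Hochberg adjustment over the 10981 tested genes, two-sided. Of those genes 7.54% were called higher and 10.3% lower at 24 h in control, and 12.9% higher and 5.4% lower with MPC EVs. The members' share of 1 higher and 1 lower among 9 is close to this background in each treatment.

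The Islr level rose 3.18-fold in control, from a mean of 4.24 to 13.5 FPKM (log2 difference 1.57 ± 0.15, adjusted p = 0.00152). With MPC EVs Islr rose 2.42-fold, from 0.960 to 2.33 FPKM (0.95 ± 0.15, adjusted p = 0.00981). Both libraries at 24 h exceeded both at 12 h in each treatment. The rise with MPC EVs no longer passed without MPC EV 12 h replicate 1 or 2 (adjusted p = 0.0513 and 0.0637) or MPC EV 24 h replicate 1 or 2 (adjusted p = 0.0612 and 0.0705), while its log2 difference stayed between 0.88 and 1.03. Even after this rise, the Islr level with MPC EVs at 24 h lay below the control level of 12 h.

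Thbs1 fell from a mean of 94.7 to 66.1 FPKM in control (log2 difference -0.51 ± 0.11, adjusted p = 0.0254) and from 88.8 to 60.4 FPKM with MPC EVs (-0.54 ± 0.11, adjusted p = 0.0226). In control the call ended without control 24 h replicate 1 or 2 (adjusted p = 0.106 and 0.160) or MPC EV 24 h replicate 1 or 2 (0.0588 and 0.0582), and in a fit to the control libraries alone (0.0628). With MPC EVs it ended without MPC EV 12 h replicate 2 (0.0732), control 24 h replicate 1 or 2 (0.0551 and 0.0549), or MPC EV 24 h replicate 1 or 2 (0.117 each), and with the replicate block and the GC and length correction together (0.0694). Its relative Thbs2 had higher values at 24 h, 2.12-fold in control and 1.52-fold with MPC EVs, without overlap in either. Under a filter of 0.1 FPKM, Thbs2 could be tested and passed in control (log2 difference 0.51, adjusted p = 0.0467) but not with MPC EVs (0.24, adjusted p = 0.268). The level of Thbs1 per Thbs2 was 303 and 315 in control at 12 h and 95.6 and 110 at 24 h. With MPC EVs it was 289 and 369 at 12 h and 140 and 156 at 24 h.

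The other 7 tested members did not pass in either treatment. Tnc had a log2 difference of -0.39 ± 0.15 in control (adjusted p = 0.129; 0.0347 and 0.0350 without MPC EV 12 h replicate 1 or 2) and of 0.01 ± 0.15 with MPC EVs (adjusted p = 0.977). Smoc2, counted among the 7, had -0.61 ± 0.21 in control and 0.03 ± 0.21 with MPC EVs. It met the filter only through its control libraries, so these values are given with no test. For Spp1 the difference in control was -0.50 ± 0.27 (adjusted p = 0.251), and without control 12 h replicate 2 it was -0.96 with an adjusted p of 0.000326; with the GC and length correction it was -0.64 (adjusted p = 0.0355). The Spp1 value with MPC EVs was -0.31 ± 0.27 (adjusted p = 0.472; 0.0101 and 0.0112 without control 12 h replicate 1 or 2). Neither of these libraries is in that comparison, and leaving either out removes the pair's wide spread from the error that all groups share.

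The same holds for Postn, with log2 differences over time of 0.88 ± 0.42 in control (adjusted p = 0.202) and -0.76 ± 0.42 with MPC EVs (adjusted p = 0.261). Without control 12 h replicate 1 or 2, the Postn value with MPC EVs had an adjusted p of 0.00968 or 0.00809. In control the Postn difference was 0.17 without replicate 2 of 12 h (adjusted p = 0.546) and 1.59 without replicate 1 (adjusted p = 0.000523). Sparc had -0.15 ± 0.08 in control (adjusted p = 0.260; 0.0189 without control 12 h replicate 1) and 0.11 ± 0.08 with MPC EVs (adjusted p = 0.380). Fn1 had 0.22 ± 0.19 and 0.23 ± 0.19 (adjusted p = 0.456 and 0.454). Fbn1 had 0.31 ± 0.13 and 0.10 ± 0.13 (adjusted p = 0.160 and 0.656).

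**Figure D3:**
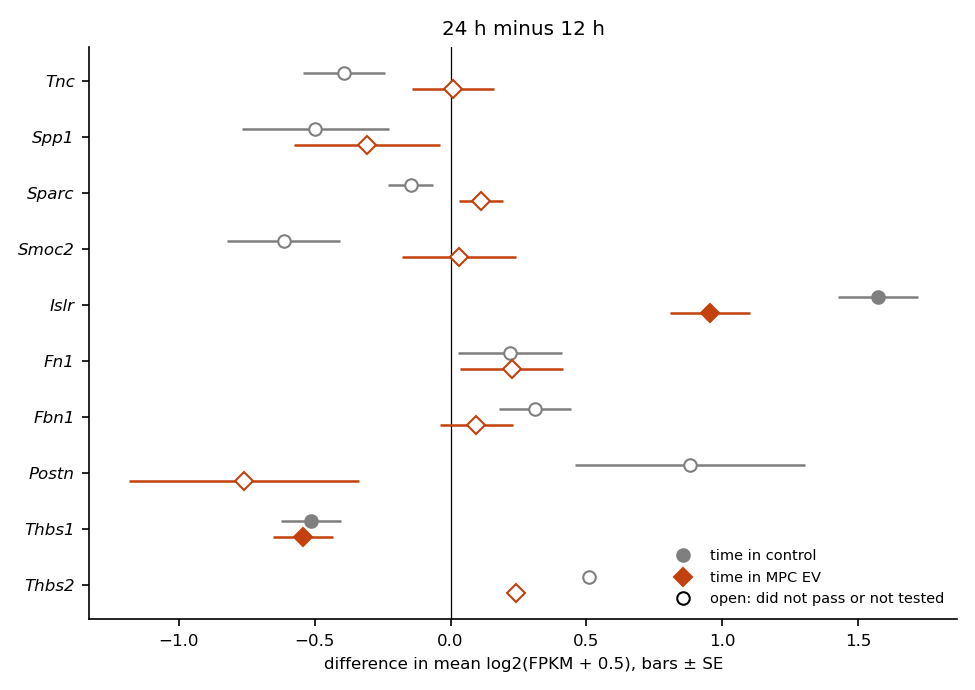
Difference between 24 h and 12 h within control (grey circles) and within MPC EV libraries (orange diamonds), as the difference in mean log2(FPKM + 0.5) with bars of 1 SE. Filled symbols passed at an adjusted p under 0.05 (Islr and Thbs1 in each treatment). Open symbols did not pass or were not tested. Thbs2 was not in the fit, and Smoc2 is given with no test because it met the filter only through its control libraries.

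Whether the EV effect differed between 12 h and 24 h was tested directly. No member passed, and 0% of all tested genes did by limma. At an unadjusted p under 0.05 there were 2014 such genes, 2 of them members, and limma-voom on recovered fragment numbers also called 0 (2017 unadjusted). Islr had the smallest value among the members, with a change of -0.62 ± 0.21 in its EV difference (limma, unadjusted 0.0237, adjusted p = 0.211), and Postn was the other (-1.64 ± 0.60, unadjusted 0.0318, adjusted p = 0.232). The remaining values were 0.40 ± 0.21 for Tnc (limma adjusted p = 0.357), 0.26 ± 0.12 for Sparc (0.295) and 0.19 ± 0.38 for Spp1 (0.771). Smoc2 had 0.65 ± 0.30, given with no test because only its control libraries carried it past the filter. Fbn1, Thbs1 and Fn1 had adjusted p-values of 0.505, 0.922 and 0.991. Without control 12 h replicate 1, which leaves the library that stood apart as the only control at 12 h, Postn (adjusted p = 0.000538) and Sparc (0.0162) passed; without replicate 2 neither did (0.124 for Postn), and Spp1 had 0.65 (adjusted p = 0.0597).

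Among all tested genes, the closest profiles to Tnc over the 8 libraries on the log2 scale were those of Dock8, a guanine nucleotide exchange factor (Pearson r = 0.993), Krt18, a keratin (0.986), and Errfi1, an inhibitor of EGF receptor signalling (0.986). Dock8 had group means of 2.21 and 4.50 FPKM in control and MPC EV at 12 h and 1.75 and 4.73 FPKM at 24 h. For Islr they were Atp6v0d1, a proton pump subunit (0.994), Fstl1, a secreted glycoprotein related to follistatin and SPARC (0.984), and Cited2, a transcriptional cofactor (0.978). Fstl1 had 22.5 and 12.6 FPKM in control and MPC EV at 12 h and 30.1 and 16.2 FPKM at 24 h. For Smoc2 they included Igsf8, an immunoglobulin superfamily membrane protein (0.997), and Gatb, a mitochondrial amidotransferase subunit (0.990). Igsf8 had 11.7 and 7.84 FPKM in control and MPC EV at 12 h and 10.5 and 7.82 FPKM at 24 h, so a near-identical shape went with a much smaller ratio than that of Smoc2. In all, 29, 34 and 48 tested genes had r of 0.95 or more with Tnc, Islr and Smoc2. The 8 points share 4 groups and their libraries' composition, so r describes likeness only.

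Other genes of the matrix, its receptors and marker lists were not members, and their EV effects were tested in the same fit of all genes. These lists too were drawn up with earlier results of the libraries known, so their counts describe the lists and support nothing on their own. Of 55 other matrix glycoproteins 28 passed the filter, and at 12 h 4 rose and 7 fell with MPC EVs, where 4.36% of all tested genes were called higher and 14.3% lower. The list had a median of -0.06 against -0.12 for all tested genes (0.07 and 0.01 with median-ratio scaling). Aebp1, a collagen-binding protein, fell from 17.0 ± 1.15 to 7.05 ± 1.29 FPKM (SD, n = 2; log2 difference -1.23 ± 0.13, limma adjusted p = 0.00571). Igfbp7 fell from 37.5 ± 3.75 to 18.5 ± 0.725 FPKM (adjusted p = 0.00372) and Ecm1 from 16.0 ± 0.118 to 9.50 ± 0.493 FPKM (adjusted p = 0.00532). Ltbp2, a protein of elastic fibres and also counted among the 7, had control levels of 5.20 ± 0.810 FPKM at 12 h and 4.05 ± 0.125 FPKM at 24 h, against 1.09 ± 0.126 and 0.826 ± 0.239 FPKM under MPC EVs. Its place among tested genes rests on the control libraries, so these values are given with no test. Fewer genes passed when 1 library was left out: 4 and 6 without MPC EV 12 h replicate 1 or 2, 6 without control 24 h replicate 1 or 2, and 7 without MPC EV 24 h replicate 1 or 2.

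At 24 h 3 of the 28 rose and 5 fell, where 2.61% of all tested genes were called higher and 0.956% lower, with a median of 0.05 against -0.03 for all tested genes. Npnt, which encodes nephronectin, an integrin ligand of basement membranes, rose from 44.4 ± 0.544 to 93.3 ± 4.26 FPKM (1.06 ± 0.10, limma adjusted p = 0.00448). Igfbp7 again fell, with a log2 difference of -0.81 ± 0.09 (limma adjusted p = 0.00928). Ccn5, a matricellular protein of the CCN family, had a control level of 2.54 ± 0.0430 FPKM, against 0.254 ± 0.00656 FPKM under MPC EVs. Like Ltbp2, it is among the 5 but met the filter only through control libraries, so it is given with no test. No gene of this list passed without control 24 h replicate 1 or 2, and 2 and 3 passed without MPC EV 24 h replicate 1 or 2. Leaving out either MPC EV library of 12 h left 5.

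Basement membrane genes had 12 tested members of 19, of which 3 rose and 1 fell at 12 h (all tested genes: 4.36% higher, 14.3% lower) and 2 rose and none fell at 24 h (2.61% higher, 0.956% lower). Ntn4, a laminin-related netrin, rose at both times, from 9.53 ± 0.253 to 14.2 ± 0.0511 FPKM at 12 h (0.55 ± 0.07, limma adjusted p = 0.00717) and from 9.77 ± 0.350 to 15.2 ± 0.196 FPKM at 24 h (limma adjusted p = 0.00911). Nid2, which links laminin to collagen, and the laminin chain gene Lamb2 rose at 12 h (0.65 ± 0.11 and 0.35 ± 0.09, limma adjusted p = 0.0181 and 0.0408), and Lamb3 fell (-0.69 ± 0.12, limma adjusted p = 0.0168). At 24 h Lamb1 rose from 18.6 ± 0.157 to 32.0 ± 0.341 FPKM (limma adjusted p = 0.0139). None of the 12 passed at 12 h without MPC EV 12 h replicate 1 or 2, and none at 24 h without any 1 of the 4 libraries of that time. Proteoglycans had only 3 tested members of 20. Bgn, biglycan, fell at 12 h from 70.6 ± 8.66 to 45.3 ± 8.51 FPKM (limma adjusted p = 0.0288) and had 89.8 ± 0.154 and 58.9 ± 1.10 FPKM at 24 h (adjusted p = 0.0800).

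Receptors for these ligands had 20 tested members of 30. At 12 h 4 rose and 4 fell (8 and 3 with median-ratio scaling), and at 24 h 5 rose and none fell. For comparison, the calls over every tested gene came to 4.36% upward and 14.3% downward at 12 h, and to 2.61% and 0.956% at 24 h. Cd47, the thrombospondin receptor, fell at 12 h from 9.12 ± 0.0779 to 5.22 ± 0.383 FPKM (-0.75 ± 0.08, limma adjusted p = 0.00595). Itga9, the integrin subunit that binds tenascin-C and osteopontin, rose from 1.35 ± 0.138 to 2.59 ± 0.178 FPKM (0.74 ± 0.12, limma adjusted p = 0.0147). The collagen receptor gene Ddr1 and the syndecan gene Sdc3 fell (-0.57 ± 0.09 and -0.58 ± 0.11, limma adjusted p = 0.0155 and 0.0216). At 24 h Cd44, a receptor for hyaluronan and osteopontin, rose from 29.5 ± 1.57 to 48.2 ± 0.439 FPKM (0.70 ± 0.10, limma adjusted p = 0.0210). Sdc4, Itgb4 and Itga6 rose by 0.80 ± 0.10, 0.80 ± 0.09 and 0.65 ± 0.07 (limma adjusted p = 0.0139, 0.0115 and 0.00912). Without MPC EV 12 h replicate 1, none was higher and 1 lower at 12 h, without its replicate 2 none and 3, and without control or MPC EV 24 h replicate 1 or 2, 1 and 2. Leaving out control 12 h replicate 1 gave 9 higher and 4 lower receptor genes. None passed at 24 h without any 1 of the 4 libraries of that time.

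**Figure D4:**
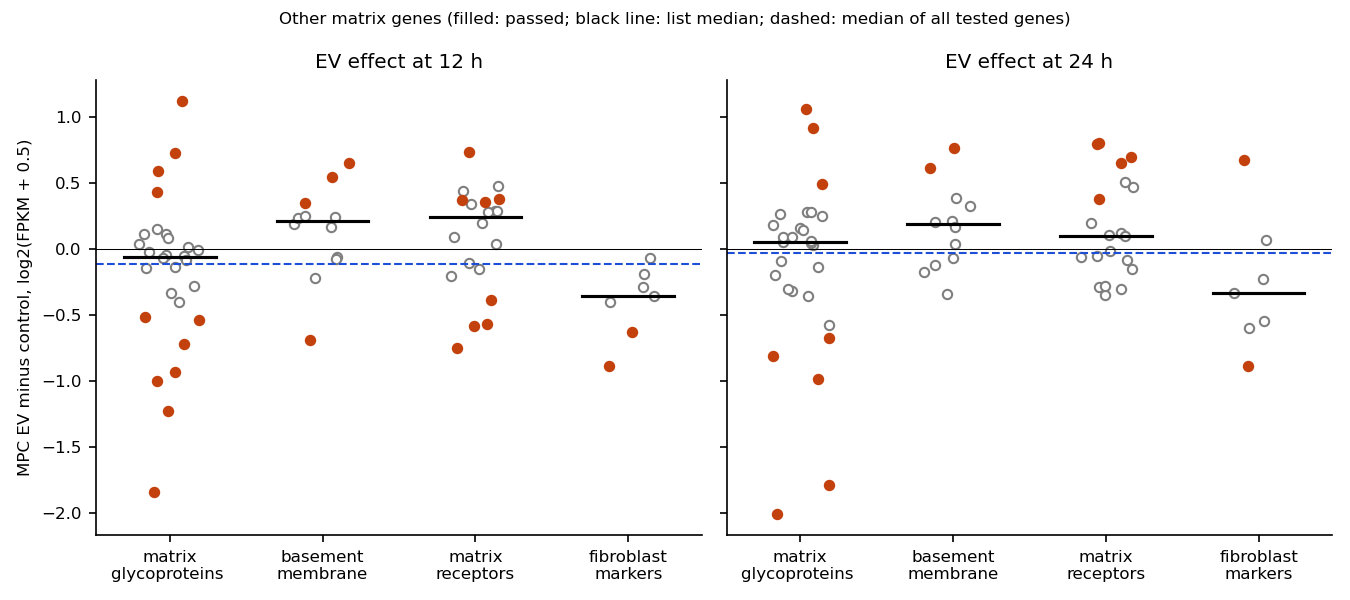
Difference between MPC EV and control in mean log2(FPKM + 0.5) at 12 h (left) and 24 h (right) for each tested gene of 4 lists that hold no member. Filled points passed at an adjusted p under 0.05, black bars are list medians and the dashed line is the median of all tested genes; among receptors 5 points are filled above 0 and none below at 24 h.

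Over time, 6 other matrix glycoproteins rose and 5 fell in control, and 7 rose and 2 fell with MPC EVs (5 and 4 with median-ratio scaling). Of all tested genes 7.54% were called higher and 10.3% lower in control, and 12.9% and 5.4% with MPC EVs. Of 12 basement membrane genes 1 rose and 3 fell in control, and 2 rose and 2 fell with MPC EVs. Spon1, the F-spondin gene, had 0.426 ± 0.0591 FPKM at 12 h and 1.45 ± 0.00996 FPKM at 24 h in control, and it met the filter only through the libraries of 24 h, so it is given with no test. Srpx2 fell in control from 12.4 ± 0.303 to 7.54 ± 0.377 FPKM (limma adjusted p = 0.00710). With MPC EVs Ecm1 rose from 9.50 ± 0.493 to 15.3 ± 0.988 FPKM (limma adjusted p = 0.00346) and Fbln1, a fibulin, from 1.66 ± 0.117 to 3.37 ± 0.276 FPKM (limma adjusted p = 0.00633). Npnt fell in control (-0.90 ± 0.10) and with MPC EVs (-0.57 ± 0.10; limma adjusted p = 0.00228 and 0.0123). In control 8 receptor genes fell and 2 rose, and with MPC EVs 6 fell and 2 rose; Itgb4 had -2.13 ± 0.09 and -1.71 ± 0.09 (limma adjusted p = 0.000317 and 0.000762). Fewer glycoprotein genes passed in control without control 24 h replicate 1 (1 higher, 2 lower) or 2 (1 and 1), MPC EV 12 h replicate 1 or 2 (3 and 3), and MPC EV 24 h replicate 1 or 2 (3 and 4). With MPC EVs their counts were 1 and 0 without MPC EV 12 h replicate 1, 3 and 0 without its replicate 2, 2 and 0 without MPC EV 24 h replicate 1 or 2, and 10 and 4 without control 12 h replicate 1 or 2. Basement membrane counts in control were 0 and 0 without control 24 h replicate 1, 0 and 1 without its replicate 2, and 3 and 3 without control 12 h replicate 2. With MPC EVs they were 0 and 1 without MPC EV 12 h replicate 1, 1 and 0 without its replicate 2, 0 and 0 without MPC EV 24 h replicate 1 or 2, and 0 and 2 without control 24 h replicate 1 or 2. For receptors in control 1 rose and 5 fell without control 24 h replicate 1 or 2. With MPC EVs none rose in 6 such fits, and 4 and 2 fell without MPC EV 12 h replicate 1 or 2, 2 without MPC EV 24 h replicate 1 or 2, and 5 without control 24 h replicate 1 or 2. Leaving out control 12 h replicate 1 or 2 gave 4 higher and 9 lower.

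Markers of fibroblasts, the cells in which Islr, Postn and Fbn1 are commonly found, were measured beside these results. Their summed level over 20 genes was 56.0 to 61.6 FPKM in control and 41.1 to 47.2 FPKM with MPC EVs at 12 h, and 65.0 to 67.9 and 55.1 to 57.2 FPKM at 24 h. The sum was thus lower with MPC EVs at each time and higher at 24 h in each treatment, as Islr was. Postn and Fbn1 followed the sum only in part. Both were lower with MPC EVs at 24 h, but their treatments overlapped at 12 h. Over time with MPC EVs, Postn had a log2 difference of -0.76 ± 0.42, and the Fbn1 libraries of the sampling times overlapped. Most of the sum came from Col3a1, Col1a2, Col1a1 and Cd34. Mfap5 and Dpt of this list are also on the glycoprotein list. Over the 8 libraries 7 of the 20 had a mean of 1 FPKM or more and 8 had a mean under 0.1 FPKM. Among the low ones, Tcf21 was at 0 in 7 libraries, and Lum was at most 0.0263, Dcn at most 0.340 and Thy1 at most 0.232 FPKM. Pdgfra ranged from 0.650 to 1.23 FPKM. All marker counts below stand beside calls over every tested gene of 4.36% higher and 14.3% lower with MPC EVs at 12 h. The shares were 2.61% and 0.956% at 24 h. Over time they were 7.54% and 10.3% in control and 12.9% and 5.4% with MPC EVs. Of 7 tested fibroblast markers none rose and 2 fell at 12 h, Col1a1 from 8.07 ± 0.0215 to 4.20 ± 1.13 FPKM and Col1a2 from 13.4 ± 0.779 to 8.57 ± 1.62 FPKM (limma adjusted p = 0.0196 and 0.0243). At 24 h Col1a2 fell (-0.88 ± 0.13) and Cd34 rose (0.68 ± 0.11; limma adjusted p = 0.0213 and 0.0305). Without MPC EV 12 h replicate 1 or either control library of 24 h none of these markers passed at 12 h, and without any 1 of the 4 libraries of 24 h none passed at 24 h. Markers of other cells moved in the same comparisons. Of 15 tested myotube markers 7 rose and 1 fell with MPC EVs at 12 h and 5 rose and 1 fell at 24 h. The sarcomere gene Actn2 rose, with log2 differences of 1.64 ± 0.12 and 2.71 ± 0.12 (limma adjusted p = 0.00245 and 0.00196). Mymx was the marker that fell at both times, with -1.17 ± 0.08 and -1.12 ± 0.08 (limma adjusted p = 0.00245 and 0.00275). Myog, Mymk and Des passed at neither time. Ttn and Neb, among the 7, had 3.66 and 8.93 FPKM in control 12 h replicate 2, against 11.8 and 30.8 FPKM in its partner. Between the times none of the 15 rose and 10 fell in control, and none rose and 6 fell with MPC EVs. Without MPC EV 12 h replicate 1 or 2 the myotube counts at 12 h were 2 and 3 higher, and without control or MPC EV 24 h replicate 1 or 2 they were 4; none passed in a fit to the libraries of 12 h only. At 24 h they were 2 and 3 higher without control 24 h replicate 1 or 2, 3 without MPC EV 24 h replicate 1, and 8 without control 12 h replicate 1 or 2. Over time in control 6 fell without control 24 h replicate 1; with MPC EVs 2 and 3 fell without MPC EV 12 h replicate 1 or 2, 3 without MPC EV 24 h replicate 2, and 10 without control 12 h replicate 1 or 2. Of 10 progenitor markers 2 rose and 1 fell at 12 h and 2 rose and none fell at 24 h. Of 6 pericyte and smooth muscle markers 1 rose and 1 fell at each time: Abcc9 rose at both, Tagln fell at 12 h and Notch3 at 24 h. Between the times 1 progenitor marker rose and 6 fell in control and 3 fell with MPC EVs, and of the pericyte and smooth muscle markers 1 rose and 4 fell in control and 3 fell with MPC EVs. None of these 6 passed at 12 h without MPC EV 12 h replicate 1 or 2, and none at 24 h without any 1 of the MPC EV 12 h, control 24 h and MPC EV 24 h libraries. No progenitor marker passed at 24 h without any 1 of the 4 libraries of that time.

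Fewer cells of a type and less RNA per cell cannot be told apart in these bulk libraries, and the part of fibroblasts, myotubes or other cells in the levels of the 10 genes was not tested.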

How the data were processed

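Per the labels' protocols, RNA of mouse primary myotubes was made into non-strand-specific libraries and read from both ends (Illumina NovaSeq). FPKM values were deposited by the authors in a single table whose columns are the libraries. The submitters' processing notes name mm10, HISAT2 and DESeq2 (listed as version 2) without a role. For the counter, annotation release and filters, nothing is stated in the sources used here. No scaling between libraries is stated, so a few abundant transcripts can move all other values of a library.

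Gene IDs were matched to symbols and positions in GENCODE vM21 (34490 of 35275), and promoters to RefSeq GRCm38.p6. FPKM steps gave whole fragments within 0.0001 for 21402 of 21406 genes above 0 (99.98%), which set depth and intervals. The 10981 genes averaging 1 FPKM or more were tested with limma 3.58.1 (lmFit, eBayes with a trend, R 4.3.3) on log2(FPKM + 0.5), using 4 group means, 4 residual degrees of freedom, Benjamini-Hochberg adjustment and 0.05 as the threshold. The 10 members were named throughout, with up to 4 genes per list and comparison by smallest adjusted p among those passing without overlap, and the 3 closest profiles to Tnc, Islr and Smoc2; 1 result under this rule is not reported here. The members and lists were chosen with earlier results of these data known. Alternatives were pseudocounts of 0.1 and 1, filters of 0.1, 5 and none, median-ratio and quantile scaling, a GC and length correction, no trend, a replicate block, leaving out each library, and the libraries of 1 comparison only. Limma-voom on the fragments was added after seeing the data. The steps were tested on simulated data. Tables and figures were made in Python 3.11.15 with numpy 2.4.6, pandas 2.3.3, scipy 1.17.1 and matplotlib 3.10.9.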

Additional observations from a re-analysis of the deposited data

How the results depend on the processing

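Leaving out 1 library at a time gave 1 to 5 members passing for time in control, 0 to 4 for time in MPC EV and 0 to 2 for the difference of the EV effects, against 2, 2 and 0. It gave 4 to 12 other matrix glycoproteins at 12 h and 0 to 11 at 24 h, against 11 and 8. Fitted to the libraries of the comparison only, 1 member passed for time in control and 4 for time in MPC EV, and 0 matrix glycoproteins at 12 h. With the replicate block and the GC and length correction together, 1 member passed for time in MPC EV and 4 matrix glycoproteins at 12 h. The replicate block alone gave 2, 2 and 0 members and 10 and 6 matrix glycoproteins. The share of all tested genes called under these settings is not given here. The counts thus show only that calls depend on the setting, and they say nothing particular to the members. The replicate numbers were not taken to pair the samples, since deviations of same-numbered libraries correlated at -0.61 to 0.24. No value changed direction among calls and separated groups in the settings run. For single genes, 860 values under other settings kept their call or stayed within the spread, 39 moved by more than the spread, and 15 calls were gained and 15 lost. The 860 include values that passed in neither setting and changed sign. Tnc over time with MPC EVs, for example, ranged from -0.23 to 0.25 when 1 library was left out. Low fragment numbers limit Thbs2, Smoc2 and Postn, whose log2 differences also depend on the pseudocount: with a pseudocount of 1 those of Smoc2 were -1.78 and -1.22 and those of Islr -1.41 and -2.12, and with limma-voom on fragments -3.29 and -2.51, and -2.13 and -2.53.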
